A study of Mus musculus with 6 samples.

Results

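*Zfr* and 8 further genes for proteins that bind double-stranded RNA or share a domain with ZFR were followed in mouse morulae after knockdown (KD) of *Yy1*, which encodes a zinc finger transcription factor. The 9 genes were found by symbol among the 55364 genes of the deposited table. *Zfr* was picked from its strong fall in *Yy1* KD, so its difference between the groups is given below as a description with no test. The other members, *Zfr2*, *Ilf2*, *Strbp*, *Adar*, *Adarb1*, *Dhx9*, *Stau1* and *Stau2*, were chosen by kinship or function.

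RNA-seq was performed on 3 control KD and 3 *Yy1* KD libraries. All embryos came from BDF1 females fertilized in vitro with BDF1 sperm, received either control or *Yy1* siRNA by injection at the zygote stage, grew in KSOM medium, and were collected 64 h after insemination at the morula stage. Each library was made from total RNA of 10 pooled morulae, and no source used here gives the sex of the embryos. The pools were not stated to come from separate fertilizations, so p-values measure the spread between these libraries, which may be partly technical. An siRNA lowers a transcript and leaves its gene intact, and a fall in a pool can reflect fewer cells of a type or less RNA per cell, which cannot be told apart.

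Double-stranded RNA forms wherever a transcript folds back on itself or meets its complement, and the proteins that bind it edit, unwind, transport or destroy it. In mammals it is also a sign of viral infection, and the same proteins decide in part whether a cell's own double-stranded RNA sets off an interferon response. ZFR is a nuclear protein with zinc fingers that bind RNA and a carboxy-terminal DZF domain, through which it pairs with relatives such as ILF2. Relatives of ZFR with a DZF domain include ZFR2, ILF2 (NF45) and STRBP (SPNR). ADAR and ADARB1 convert adenosine to inosine within double-stranded RNA, DHX9 is a helicase that unwinds it, and STAU1 and STAU2 are the Staufen proteins, which carry RNA within the cell and mark it for decay.

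Before the levels, the sequences at the start sites of the members are shown, since YY1 binds promoters. RefSeq windows of 300 bases (GRCm38.p6, the assembly of mm10), 250 before and 50 after an annotated start, were listed for 8 of the 9 members, 12 windows in all, and *Stau2* had none. The YY1 consensus GCCATNTT, searched on both strands, was found in 0 of these 12 windows, beside 6.05% of all 32851 windows. Its first 5 letters, GCCAT, also searched on both strands, were found in windows of *Dhx9*, *Strbp*, *Ilf2* and *Zfr2* and in 40.5% of all windows, and the window of *Zfr* did not hold them. What the window of *Zfr* did hold was an element known to be bound by ZNF143, ACTACANNTCCCANNATGC, and a palindrome known from NRF1 sites, GCGCNNGCGC. The former was in 0.219% and the latter in 6.23% of all windows, which include those of genes not expressed here. Among genes tested and not called that had a window, 0.640% held the ZNF143 element, 14.8% the NRF1 palindrome and 9.33% the YY1 consensus, and among genes called lower these shares were 0.967%, 16.4% and 27.7%. Among genes called higher they were 1.04%, 14.6% and 14.1%. The ZNF143 element was in 5 of 517 genes called lower, *Zfr* among them, and in 2 of 192 called higher. The ZNF143 element and the NRF1 palindrome were searched after the sequences had been read, and they do not overlap each other. *Stau1* shared the ZNF143 element with *Zfr*, and *Dhx9* shared the NRF1 palindrome. The matches are printed for the 3 genes, with the matched bases in capitals, because *Zfr* and *Dhx9* were lower and *Stau1* was not in *Yy1* KD morulae.
*Zfr*, ZNF143 element, plus strand, chr15:12117763-12117792: taaggACTACATCTCCCAGGATGCatcgca
*Stau1*, ZNF143 element, minus strand, chr2:166996438-166996467: gggaaACTACAACTCCCAACATGCctcgga
*Zfr*, NRF1 palindrome, plus strand, chr15:12117788-12117817: tcgcactagcGCGCTTGCGCggtgcggccg
*Dhx9*, NRF1 palindrome, minus strand, chr1:153487679-153487708: ttggcctaccGCGCAGGCGCgagtcgccga
*Dhx9*, first 5 letters of the YY1 consensus, minus strand, chr1:153487634-153487663: cctgcagtcggaGCCATttcgccgctgctt
Counted from the RefSeq start, the ZNF143 element began at position -83 in *Zfr* and at -163 in *Stau1*, the NRF1 palindrome at -53 in *Zfr* and at -38 in *Dhx9*, and GCCAT at 10 in *Dhx9*. A match of letters is not evidence of binding, and letters missing from a window say nothing of sites elsewhere.

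The deposited values are TPM, in which the read pairs of a gene are scaled by the length of its exons over all annotated transcripts and by the total of the library. Multiplying back by exon length recovered between 11793509 and 24417789 read pairs on genes per library. These pairs give the depth behind each value. The siRNA target *Yy1* itself was at 96.0, 100.2 and 89.8 TPM in control KD and at 8.73, 8.90 and 8.32 TPM in *Yy1* KD libraries, or 9.07% of the control. All 11 markers of the preimplantation embryo, *Pou5f1*, *Nanog* and *Cdx2* among them, were at 1 TPM or more in all 6 libraries. Of these, 1, *Tfap2c*, was called lower (limma, log2 difference -0.54, adjusted p = 0.0174), beside 6.11% of all genes tested called in either direction. *Sox2* was lower in each *Yy1* KD library than in each control KD library but was not called (log2 difference -0.86, limma adjusted p = 0.0942). For the rest of the 11 the groups overlapped. Of 10 cumulus cell markers, 8 stayed under 1 TPM throughout and 5, *Fshr* and *Cyp19a1* included, were at 0. The cumulus list summed to between 8.77 and 11.1 TPM in control KD and between 8.79 and 9.31 TPM in *Yy1* KD libraries, most of it *Amhr2*. The 5 sperm markers summed to between 0.216 and 0.542 TPM in control KD and between 0 and 2.26 TPM in *Yy1* KD libraries. The 8 oocyte markers summed to between 52.6 and 74.1 TPM in control KD and between 56.1 and 73.2 TPM in *Yy1* KD libraries. Whether this is leftover maternal RNA was not tested.

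*Zfr* (ENSMUSG00000022201.16) occupies chromosome 15 from 12117831 to 12185683 (GRCm38, plus strand), and no other annotated gene overlaps its exons. Control KD libraries 1 to 3 held *Zfr* at 100.02, 102.1 and 95.5 TPM, whereas *Yy1* KD libraries 1 to 3 held it at 36.2, 36.6 and 29.7 TPM. These values rest on 3060, 6232 and 4211 read pairs in control KD and on 1658, 1191 and 871 in *Yy1* KD libraries. All *Yy1* KD values were thus far below all control KD values, and the libraries within a group were close to each other. The mean was 99.2 ± 3.39 TPM without and 34.2 ± 3.87 TPM with *Yy1* KD (SD, n = 3 each), the latter being 34.5% of the former, and the difference was -1.51 on the log2(TPM + 1) scale. In control KD morulae *Zfr* was an abundant transcript, at a level higher than 91.0% of the 17353 genes with at least 1 TPM in at least 3 of the 6 libraries, which were the genes tested. Ordered by the size of the fall, it stood at place 88 of the 728 genes called lower. This place describes a gene that was picked for its fall, and it is no test of *Zfr*.

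**Figure D1:**
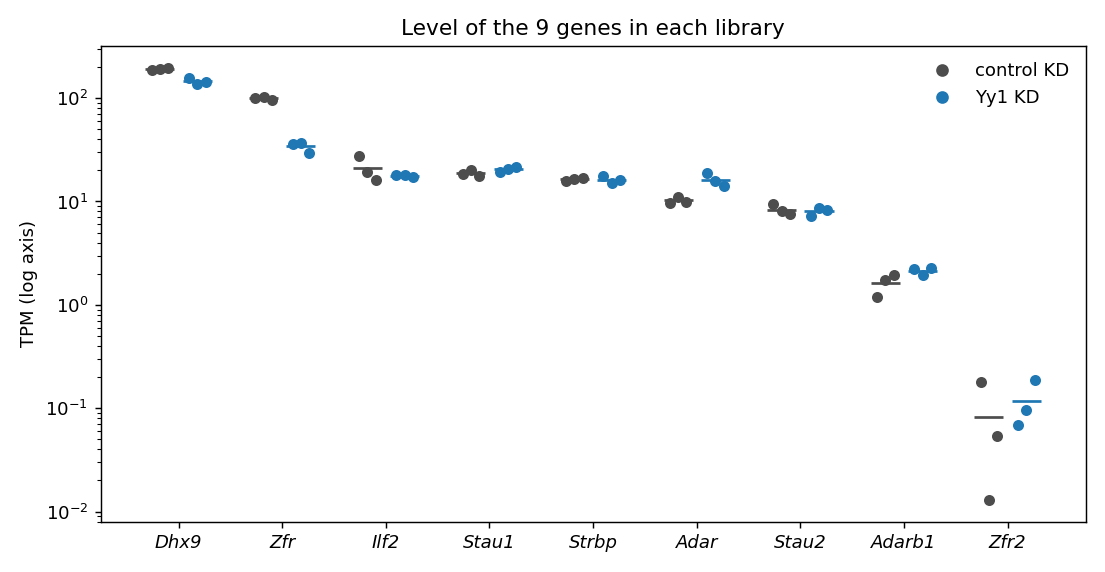
TPM of the 9 genes in each library on a log axis, with control KD in grey and *Yy1* KD in blue. Points are libraries, 3 per group, and lines are group means. *Dhx9* and *Zfr* stand well above the other 7 genes, and the groups are apart for *Zfr*, *Dhx9* and *Adar*.

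In level, the 9 genes spanned a wide range, and *Dhx9* and *Zfr* led it in both groups. The order in control KD morulae, in mean TPM per exon length, was *Dhx9* (192.5), *Zfr* (99.2), *Ilf2* (21.1), *Stau1* (18.7), *Strbp* (16.4), *Adar* (10.2), *Stau2* (8.31), *Adarb1* (1.63) and *Zfr2* (0.0825). Of neighbours in this order, only *Ilf2* and *Stau1* overlapped in their 3 libraries, and the lowest value of *Ilf2*, 16.3 TPM, also lay within the range of *Strbp*. The summed exon length, between 5911 nt for *Zfr* and 18616 nt for *Strbp*, includes every annotated transcript, so the level of a gene with many long variants is understated. In *Yy1* KD morulae *Dhx9* (145.6 TPM) and *Zfr* (34.2 TPM) remained the highest, *Stau1* (20.4 TPM) came before *Ilf2* (17.7 TPM), and *Ilf2* with *Strbp* (16.2 TPM), and *Strbp* with *Adar* (16.1 TPM), overlapped.

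Among the members other than *Zfr*, 7 passed the filter on low values and 1 of them, *Dhx9*, was called lower in *Yy1* KD, at an adjusted p under 0.05 from limma on log2(TPM + 1) with Benjamini-Hochberg adjustment over all genes tested. Over all genes, 6.11% were called, 4.2% lower and 1.92% higher, and the split was 388 higher and 548 lower with quantile normalization where it was 333 and 728 here. Against that background, 1 call among 7 genes is not a result about these genes as a group. The groups did not overlap for 2 of the 7, *Dhx9* and *Adar*, where 30.1% of all genes had groups that did not overlap. Of the 7, 4 were lower and 3 higher, and their median difference of -0.02 (log2) was close to the median over all genes tested, -0.02.

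**Figure D2:**
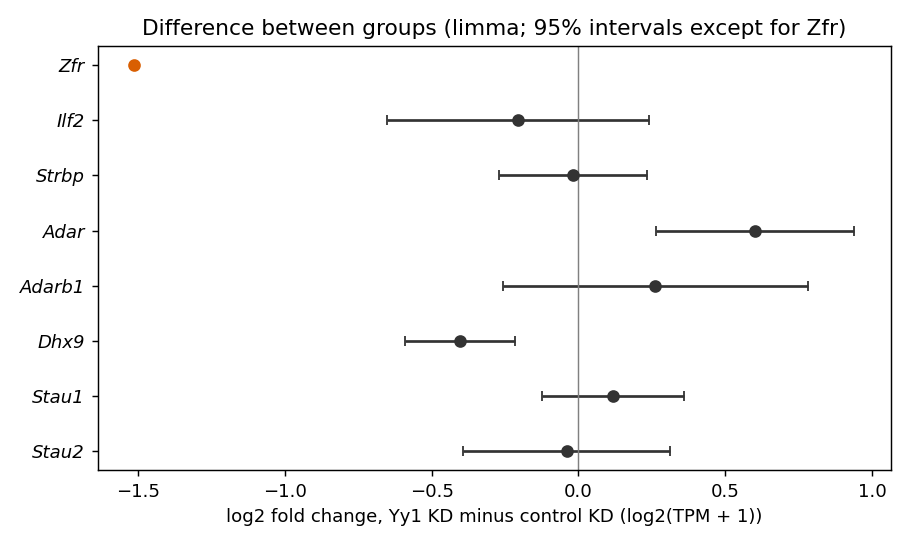
Difference between *Yy1* KD and control KD morulae on the log2(TPM + 1) scale for the 8 members that passed the filter. Points are limma estimates from 3 libraries per group and bars are 95% intervals, unadjusted for the number of genes. *Zfr*, in orange, was picked from this difference, lies at -1.51 and is drawn without an interval, and of the other 7 the intervals of *Dhx9* and *Adar* exclude 0, on opposite sides, and 5 include it.

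None of the 3 relatives of *Zfr* with a DZF domain among the members was called, and 1 of them, *Zfr2*, was too low to test by limma. *Ilf2* (chromosome 3, 90476126 to 90488379, plus strand) was at 27.6, 19.4 and 16.3 TPM in control KD and at 18.1, 17.9 and 17.2 TPM in *Yy1* KD libraries. Control KD replicate 1 was higher than the rest, and the other 5 libraries lay between 16.3 and 19.4 TPM. The difference was -0.21 (log2, 95% interval -0.65 to 0.24, limma adjusted p = 0.560), and it was -0.00 without control KD replicate 1. *Ilf2* shares 354 nt, 4.13% of its exon length, with *Snapin* on the opposite strand, and read pairs were counted without regard to strand and divided between the genes.

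*Strbp*, whose protein SPNR carries a DZF domain and binds double-stranded RNA, lies on the minus strand of chromosome 2 from 37483228 to 37703859. It was at 15.9, 16.5 and 16.9 TPM in control KD and at 17.4, 15.1 and 16.1 TPM in *Yy1* KD libraries. The control values lay within the range of the *Yy1* KD values, and the difference was -0.02 (log2, 95% interval -0.27 to 0.23, limma adjusted p = 0.938). A change of *Strbp* as large as that of *Zfr* lies outside this interval, and outside that of *Ilf2* as well.

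*Zfr2* (chromosome 10, 81233155 to 81252123, plus strand), the closest relative of *Zfr*, was hardly detected. It was at 0.181, 0.0129 and 0.0537 TPM in control KD and at 0.0690, 0.0972 and 0.189 TPM in *Yy1* KD libraries, which corresponds to 7, 1 and 3 read pairs against 4, 4 and 7. It did not pass the filter on low values, the groups overlapped, and a difference was not detectable at this depth (two-sided exact permutation test, p = 0.5, where 3 libraries against 3 cannot go below 0.1).

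Summed over the 4 DZF members, TPM went from 136.8 ± 7.53 (SD, n = 3) in control KD to 68.3 ± 4.49 (SD, n = 3) in *Yy1* KD libraries, and nearly the whole of this difference was that of *Zfr* itself, so the sum is a description too. *Zfr* made up 69.6%, 74.0% and 74.2% of the sum in control KD and 50.4%, 52.5% and 47.0% in *Yy1* KD libraries. *Zfr* thus held most of the DZF transcripts in each control library and about as many as *Ilf2* and *Strbp* together in each *Yy1* KD library. *Zfr* over *Ilf2* went from a ratio of 4.92 ± 1.16 to 1.93 ± 0.170 (SD, n = 3 each).

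**Figure D3:**
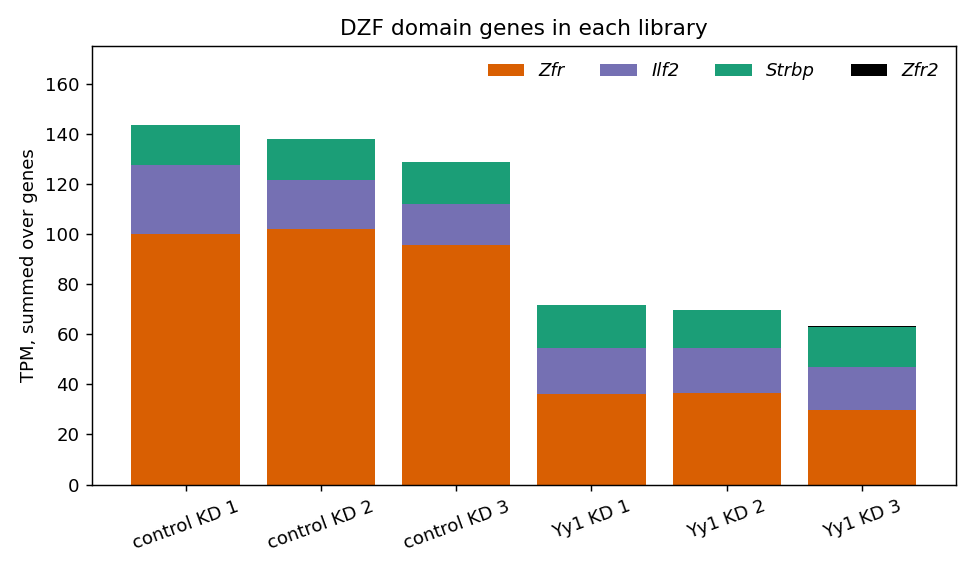
Stacked TPM of *Zfr*, *Ilf2*, *Strbp* and *Zfr2* in each of the 6 libraries. The orange part, *Zfr*, goes from between 95.5 and 102.1 TPM in control KD to between 29.7 and 36.6 TPM in *Yy1* KD libraries, while the parts for *Ilf2* and *Strbp* keep similar heights apart from a higher *Ilf2* in control KD replicate 1; *Zfr2* is barely visible.

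*Dhx9* (ENSMUSG00000042699.11), the most abundant member, lies on the minus strand of chromosome 1 from 153455758 to 153487660. It was at 187.4, 192.8 and 197.3 TPM in control KD and at 158.0, 135.7 and 143.0 TPM in *Yy1* KD libraries. All 3 control KD values were above all 3 *Yy1* KD values, with a mean that went from 192.5 ± 4.96 to 145.6 ± 11.4 TPM (SD, n = 3 each), 75.6% of the control. The difference was -0.40 (log2, standard error 0.08, limma adjusted p = 0.0358), from at least 6803 read pairs in every library. The call was close to the threshold: leaving out single libraries kept it in 1 of 6 cases, without *Yy1* KD replicate 1, and it was lost with quantile normalization (-0.36, limma adjusted p = 0.0536). Fits without 1 library called fewer genes throughout, between 23 and 81 higher and between 50 and 335 lower over all genes. Because *Zfr* fell more than *Dhx9*, *Dhx9* over *Zfr* went from a ratio of 1.94 ± 0.107 in control KD to 4.29 ± 0.555 in *Yy1* KD libraries (SD, n = 3 each).

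Of the editing enzymes, *Adar* was higher in each *Yy1* KD library than in each control KD library, but it was not called. *Adar* (chromosome 3, 89715022 to 89753446, plus strand) was at 9.65, 11.1 and 9.91 TPM in control KD and at 18.7, 15.6 and 14.1 TPM in *Yy1* KD libraries. The mean of 16.1 ± 2.35 TPM in *Yy1* KD was 1.58 times that of control KD, 10.2 ± 0.787 TPM (SD, n = 3 each), and the difference was 0.60 (log2, standard error 0.14, limma adjusted p = 0.0577). *Adar* shares 1365 nt, 16.8% of its exon length, with *Chrnb2* on the opposite strand, which was itself at 1.39, 1.40 and 0.872 TPM in control KD and at 1.80, 1.73 and 1.98 TPM in *Yy1* KD libraries. Whether shared read pairs contributed to the difference of *Adar* was not tested. ADAR is made in a short form and in a long form that interferon induces, and values per gene do not separate them.

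*Adarb1* (chromosome 10, 77290726 to 77418270, minus strand), the other editing enzyme, was low. It was at 1.20, 1.74 and 1.96 TPM in control KD and at 2.2, 1.95 and 2.26 TPM in *Yy1* KD libraries, from between 70 and 202 read pairs. The highest control KD value exceeded the lowest *Yy1* KD value, and the difference of 0.26 (log2, 95% interval -0.26 to 0.78, limma adjusted p = 0.521) was within the spread of the libraries. *Adar* was the more abundant of the pair in every library, 6.50 ± 1.5 times *Adarb1* in control KD and 7.58 ± 1.19 times in *Yy1* KD (SD, n = 3 each).

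Neither Staufen gene was called. *Stau1* (chromosome 2, 166947549 to 166996299, minus strand) was at 18.3, 20.1 and 17.7 TPM in control KD and at 19.4, 20.4 and 21.3 TPM in *Yy1* KD libraries. The groups overlapped and the difference was 0.12 (log2, 95% interval -0.12 to 0.36, limma adjusted p = 0.533). *Stau2* (chromosome 1, 16228674 to 16520112, minus strand), which is best known from neurons, was at 9.39, 8.04 and 7.51 TPM in control KD and at 7.24, 8.68 and 8.23 TPM in *Yy1* KD libraries. Its groups overlapped too, with a difference of -0.04 (log2, 95% interval -0.39 to 0.31, limma adjusted p = 0.904).

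To place the members among the genes they act with, 64 genes in 6 lists were read from the same fit. Of these, 44 passed the filter, 5 were called lower and 1 higher. Thus 13.6% of the genes that passed were called, beside the 6.11% of all genes tested given above. The share called depends on the filter: of the 10675 genes with a mean of at least 5 TPM, 378 were called higher and 841 lower. With that filter 1 gene of the lists was called higher and 3 lower. *Pnrc2* and *Tnrc6c*, both among the 5 called lower, did not pass that filter and so were not tested with it. In 22 of the 44 (50%) the groups did not overlap, against 30.1% of all genes. The lists were chosen with earlier results of these data known, so neither share is a result about the lists.

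Of 15 further genes for proteins with a double-stranded RNA binding domain, 12 passed the filter and 2 were called, both lower. These are the nucleases of microRNA biogenesis. *Drosha*, which cuts primary microRNA transcripts in the nucleus, was at 45.7, 49.5 and 49.5 TPM in control KD and at 33.2, 34.3 and 30.6 TPM in *Yy1* KD libraries (log2 difference -0.55, standard error 0.09, limma adjusted p = 0.0226). *Dicer1*, which cuts the hairpins into mature microRNAs, was at 31.1, 31.8 and 32.2 TPM in control KD and at 22.5, 19.1 and 20.3 TPM in *Yy1* KD libraries (log2 difference -0.60, standard error 0.10, limma adjusted p = 0.0235). The groups were clearly apart for both nucleases, although leaving out 1 library kept the call of *Drosha* in 0 and that of *Dicer1* in 1 of 6 fits. *Dgcr8*, the partner of DROSHA, was not called, with a log2 difference of 0.03 (95% interval -0.23 to 0.28, limma adjusted p = 0.917), nor was *Tarbp2*, a partner of DICER1, with 0.24 (95% interval -0.04 to 0.53, limma adjusted p = 0.276). The highest of the list was *Son*, a nuclear speckle protein (110.7 TPM in mean in control KD, log2 difference 0.02, limma adjusted p = 0.929), which was not called. The median of the 12 genes was -0.00 (log2). *Eif2ak2* of the same list, which encodes the kinase PKR, stayed under 1 TPM in all 6 libraries.

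The sensors of double-stranded RNA and the genes that interferon induces were mostly at low levels in these morulae. Of 13 genes for sensors and their signalling, 7 were under 1 TPM in all 6 libraries, among them *Ifih1*, *Ddx58* and *Tlr3*, and 5 passed the filter with 0 called by limma. Of 12 interferon-stimulated genes, 9 were under 1 TPM throughout, 3 of these (*Isg15*, *Ifit2* and *Ifit3*) were at 0 in every library, and of the 3 that passed the filter 0 were called. The highest of the lists were *Tbk1*, a kinase downstream of the sensors (23.4 TPM in mean in control KD, log2 difference 0.11, limma adjusted p = 0.724), and *Bst2*, or tetherin (11.7 TPM in mean in control KD, log2 difference -0.35, limma adjusted p = 0.441). *Ifit2* and *Ifit3* had 0 recovered read pairs in every library, and pairs were not recovered for *Isg15*, whose identifier was not matched. At an unadjusted p under 0.05, limma listed 2 genes of the first list, both under 1 TPM in libraries of 1 group, and 1 of the second, *Stat2*. *Stat2*, which carries the interferon signal, was at 5.51, 4.97 and 5.90 TPM in control KD and at 1.61, 2.67 and 3.10 TPM in *Yy1* KD libraries (log2 difference -0.92, limma adjusted p = 0.0622).

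Of 11 genes of nonsense-mediated decay, which shares the helicase UPF1 with decay started by Staufen, all passed the filter and 1, *Pnrc2*, was called lower. *Pnrc2*, which links UPF1 to decapping, was at 7.94, 6.74 and 6.18 TPM in control KD and at 0.846, 1.64 and 2.01 TPM in *Yy1* KD libraries (log2 difference -1.69, standard error 0.24, limma adjusted p = 0.0163). The call was kept in 2 of 6 fits without 1 library and lost with the replicate block (limma adjusted p = 0.0613), and the difference ran from -0.88 with a pseudocount of 5 to -2.32 with limma-voom. *Upf1* itself was at 167.9, 174.96 and 156.3 TPM in control KD and at 182.1, 197.2 and 179.2 TPM in *Yy1* KD libraries, without overlap, and was not called (log2 difference 0.16, limma adjusted p = 0.258).

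Of 8 effectors of small RNAs, the Argonaute and TNRC6 proteins with Exportin 5, all passed and 1 was called. *Tnrc6c*, a scaffold that couples Argonaute to deadenylation, was at 4.001, 4.18 and 5.17 TPM in control KD and at 1.68, 1.19 and 1.13 TPM in *Yy1* KD libraries (log2 difference -1.22, standard error 0.21, limma adjusted p = 0.0262). The call was kept in 1 of 6 fits without 1 library and lost without a filter (limma adjusted p = 0.0827) and with the replicate block (limma adjusted p = 0.0809), and the difference ran from -0.58 with a pseudocount of 5 to -1.70 with limma-voom. *Ago2*, the Argonaute that cuts its targets and the most abundant of the list, had means (± SD, n = 3 each) of 215.9 ± 15.1 TPM in control KD against 188.7 ± 11.8 TPM in *Yy1* KD, a difference that was not called (log2 difference -0.19, limma adjusted p = 0.219).

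Paraspeckles are nuclear bodies that hold edited and folded RNA, and of 5 genes for their proteins and RNA 1 was called lower, 1 higher and 3 were not called, with a median difference of -0.26 (log2). *Pspc1* was at 19.9, 18.6 and 20.4 TPM in control KD and at 4.01, 7.26 and 5.07 TPM in *Yy1* KD libraries (log2 difference -1.71, standard error 0.20, limma adjusted p = 0.0117), and it was called in 4 of the 6 fits that left out 1 library. *Nono* was higher in *Yy1* KD, at 256.0, 270.9 and 274.3 TPM against 210.5, 208.5 and 215.8 TPM (log2 difference 0.33, standard error 0.06, limma adjusted p = 0.0339), a call that 0 of the 6 such fits kept. In these fits, which called fewer genes throughout, the log2 difference of *Nono* lay between 0.31 and 0.36. The 3 not called were *Neat1*, the RNA that paraspeckles form on, with -0.80 (log2, limma adjusted p = 0.147), *Matr3*, a nuclear matrix protein, with -0.26 (log2, limma adjusted p = 0.157), and *Sfpq*, a relative of *Pspc1* and *Nono*, with -0.01 (log2, limma adjusted p = 0.957). The groups did not overlap for *Neat1* and *Matr3*, both lower in *Yy1* KD. *Neat1* was at 7.03, 3.18 and 6.44 TPM in control KD and at 2.28, 2.73 and 2.85 TPM in *Yy1* KD libraries.

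**Figure D4:**
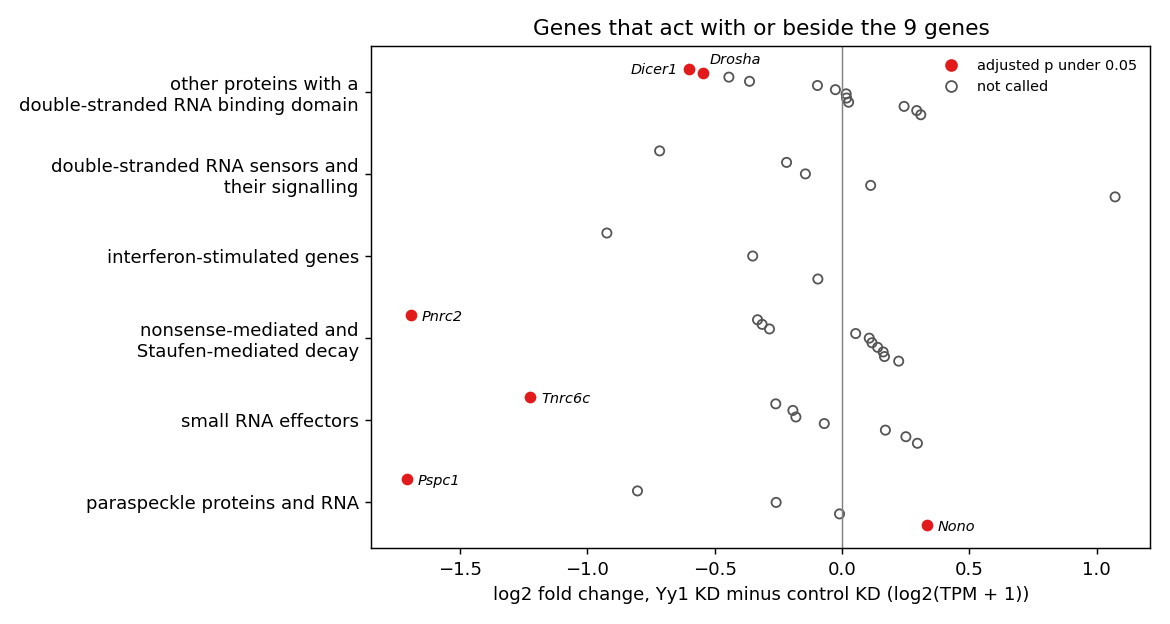
Log2 difference between *Yy1* KD and control KD morulae for the 44 genes of the 6 related lists that passed the filter on low values, 1 row of points per list. Filled red points, with names, are the 6 genes called by limma; open points were not called. Of the called genes, 5 lie left of 0 and *Nono* lies right of it.

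The genes whose values across the 6 libraries were nearest to those of *Zfr* were sought among genes with a mean of at least 10 TPM, by the root mean square difference of log2(TPM + 1) after subtraction of the control KD mean. They were *Exosc2*, a subunit of the RNA exosome (0.097), *Pgrmc1*, a heme-binding membrane protein (0.14), *Ptpa*, an activator of protein phosphatase 2A (0.17), *Vps41*, a part of the HOPS tethering complex (0.17), and *Senp6*, a SUMO protease (0.18). *Exosc2* was at 43.3, 37.8 and 42.5 TPM in control KD and at 14.6, 16.3 and 11.8 TPM in *Yy1* KD libraries, with the lowest value in *Yy1* KD replicate 3 as for *Zfr*. These genes were found by their likeness to a gene that was itself picked for its fall, so their fall is not a further result.

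**Figure D5:**
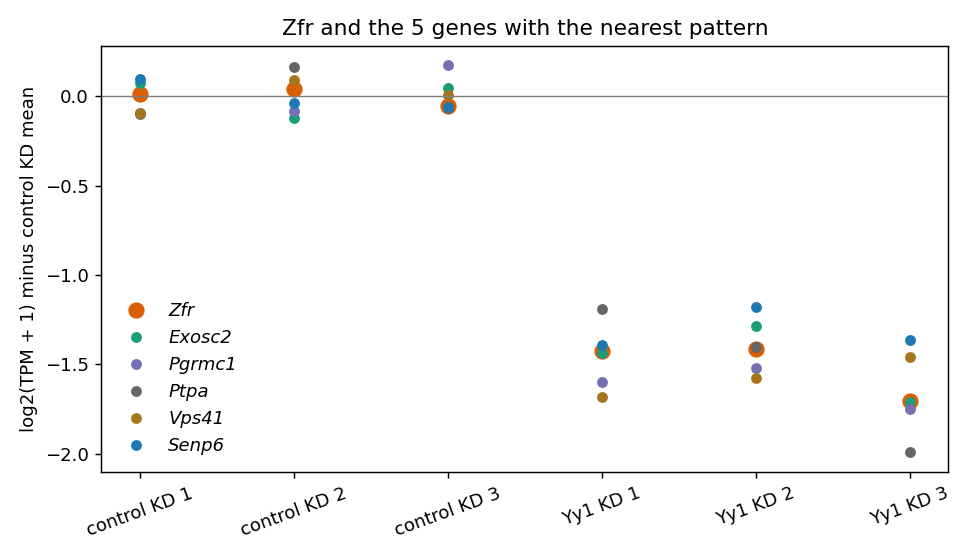
Values of *Zfr* (large orange points) and of the 5 genes with the nearest pattern in each library, as log2(TPM + 1) minus the control KD mean of the gene. All 6 genes lie close to 0 in the control KD libraries and far below it in each *Yy1* KD library.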

How the data were processed

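Per the labels and the study's methods, the authors trimmed reads with Trim Galore 0.6.7, aligned them to mm10 with HISAT2 2.2.1, removed ribosomal RNA reads with bedtools, counted read pairs over GENCODE vM25 genes with featureCounts 2.0.1, unstranded and with a pair split between the genes it touched, and deposited the result as TPM. Count models need counts, so the count test of the study was replaced by limma 3.58.1 (R 4.3.3) on log2(TPM + 1), a scale that understates changes of low genes, with a variance trend, over genes with at least 1 TPM in at least 3 of 6 libraries. A gene was called at a Benjamini-Hochberg adjusted p under 0.05. Libraries were grouped by their titles, and 0 columns of values were left unused. Coordinates, exon lengths and overlaps come from GENCODE vM21 (same assembly as mm10), which matched 98.1% of identifiers. Read pairs per gene were recovered as TPM times exon length over the value of 1 pair; between 89.0% and 90.9% of values under 20 pairs of genes without overlap were whole within 0.02. The text names the members, *Yy1*, genes of the related lists that were called, were the highest of their list in control KD or have their role described, and the 5 genes nearest to *Zfr* with a mean of at least 10 TPM and no clone or predicted name. Some genes that this rule names are not reported here. The members and lists were chosen with earlier results of these data known; the lists were written from general knowledge. The limma fit was first tested on simulated data. Alternatives were pseudocounts of 0.1 and 5, other filters, scalings and variance models, a block for replicate number, and fits without 1 library; limma-voom on recovered pairs was added after seeing the data. Figures were made with matplotlib 3.10.9.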

Additional observations from a re-analysis of the deposited data

How the results depend on the processing

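The difference of *Zfr* kept its sign in all 16 alternatives, between -1.57 and -1.41 on the log2 scale, and between -1.57 and -1.42 in the fits that left out 1 library. The share of *Zfr* in the DZF sum was lower in *Yy1* KD by between 21.1 and 24.1 percentage points when 1 library was left out (values of -21.1 and -24.1). *Dhx9* was negative in all 16, between -0.46 and -0.35, and called in 7. *Adar* was positive in all 16, between 0.47 and 0.69, with adjusted p between 0.00876 and 0.156, and was called among genes with a mean of at least 5 TPM (adjusted p = 0.0387) and by limma-voom (adjusted p = 0.00876). The members other than *Zfr* called lower numbered 1, and 0 without a filter, with quantile normalization, without a variance trend and with the replicate block, and between 0 and 1 when 1 library was left out; those called higher numbered 1 with a mean of at least 5 TPM and with limma-voom, and 0 in every fit that left out 1 library. *Strbp*, never called, changed sign with median-ratio scaling (0.0058) and quantile normalization (0.073), and ranged from -0.069 to 0.028 when 1 library was left out. *Stau2*, never called, changed sign with quantile normalization (0.030) and ranged from -0.103 to 0.042 when 1 library was left out. Of the genes of the related lists, 3 were called lower with a mean of at least 5 TPM and without a variance trend, 1 with the replicate block and 10 with limma-voom, and 0 higher without a filter, without a variance trend and with the block; leaving out 1 library gave 0 to 4 lower and 0 higher. Over all genes, 333 were called higher and 728 lower. The counts were 77 and 270 without a filter, 132 and 382 without a variance trend, 69 and 218 with the replicate block and 801 and 1285 with limma-voom, and between 23 and 81 higher and between 50 and 335 lower when 1 library was left out, the fewest without control KD replicate 3. The cause of these changes was not tested. Without a filter the number of genes tested was larger (35852). The sources used here do not say whether equal replicate numbers mark paired libraries. Deviations from the group mean of equally numbered libraries correlated at -0.00, 0.03 and 0.07 across genes. Of the 3 numbers 2 had their own number as best partner. With 3 libraries per group these values cannot decide whether the libraries were paired. Depth limits *Zfr2*, with 1 to 7 read pairs in a library.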

Other observations

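Inside the introns of *Zfr* the annotation places *Mir1898* (chromosome 15, 12171492 to 12171574, plus strand), and its read pairs were fewer in each *Yy1* KD library than in each control KD library. It received 17, 8 and 12.5 read pairs in the control KD libraries and 0, 0 and 3 in the *Yy1* KD libraries. A fragment long enough for this library type cannot be told apart from unspliced *Zfr* RNA at the same place, and the values were looked at after those of *Zfr* were known. The other 2 genes nested in *Zfr* did not show groups apart. *Gm25713* received 2, 7 and 0 read pairs in control KD and 0 in each *Yy1* KD library, and *Gm2573*, on the same strand as *Zfr*, received 0, 15 and 3 in control KD and 6, 1 and 4 in *Yy1* KD libraries.

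*Oas1a*, which encodes a synthetase that double-stranded RNA activates, was detected at low levels. It was at 0.307, 0.308 and 0.782 TPM in control KD and at 1.23, 3.18 and 2.03 TPM in *Yy1* KD libraries, from 3, 6 and 11 read pairs against 18, 33 and 19. It passed the filter on low values through the *Yy1* KD libraries alone, so no test of it is given, and it has closely similar copies in the mouse genome, which makes its value uncertain.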
